A study of Mus musculus with 17 samples.

Results

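The C/EBP family genes measured here were Cebpb, Cebpd, Cebpg and Cebpa, followed through PDGF stimulation and inhibition of MEK, Src family kinases or PI 3-kinase in NIH 3T3 cells, an immortal fibroblast line from mouse embryos. The 4 genes were chosen with earlier results of these data known. Their probe sets were chosen by annotation, as those annotated to exactly 1 of these 4 genes. This gave 8 of 22626 probe sets (4 of 12393 genes) in a table of 8 arrays and 4 of 12422 probe sets (4 of 8251 genes) in a table of 9 arrays. A probe set is a group of short oligonucleotides that reports on 1 transcript. The filter on dim probe sets kept 7 of the 8 and 4 of the 4, and the probe set left out was the 1 for Cebpa in the 8-array table.

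All cells were quiescent, and each condition was measured on 1 array. The Src experiment filled the 8-array table: PDGF with 2 µM SU6656, with 10 µM UO126, with 7.5 µM LY294002 or alone, against the same inhibitors without PDGF and vehicle. PDGF was given at 25 ng/ml for 1 h. The 9-array table held the MEK experiment (PDGF with UO126, with 7.5 µM PD98059 or alone, against UO126, PD98059 and untreated cells) and a repeat of part of the Src experiment (PDGF with SU6656 or alone for 1 h, against vehicle). The time of PDGF in the MEK experiment is not given in the sources used here. UO126 and PD98059 block the MEK kinases that activate ERK, SU6656 blocks Src family kinases, and LY294002 blocks PI 3-kinase. The labels do not say that arrays came from separate cultures, so p-values measure the spread between these arrays, which may be technical.

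C/EBP proteins are transcription factors of the basic leucine zipper class, which bind DNA as pairs within the family or with related zipper proteins. C/EBPβ and C/EBPδ are made early after hormonal or mitogenic stimulation of fibroblasts and preadipocytes, and in adipogenesis they act before C/EBPα, which maintains the differentiated state. C/EBPγ lacks a classical activation domain and can pair with the other members. PDGF acts through receptor tyrosine kinases that engage Src family kinases, the MEK and ERK cascade and PI 3-kinase, and ERK can phosphorylate C/EBPβ. RNA levels, the only measurement here, do not show that phosphorylation.

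The fibroblast label was checked on 13 markers, of which 12 (8-array table) and 13 (9-array table) passed the filter, at a median percentile of signal of 99.7 and 94.8 among all probe sets. Of 4 adipocyte and 4 hepatocyte markers, 1 each passed the filter in each table. Of 7 macrophage markers, 5 (8-array table) and 4 (9-array table) passed, at a median percentile of 45.0 and 41.3. Of 5 epithelial markers, 3 passed in each table, at a median percentile of 32.8 and 33.3. Passing the filter was thus not particular to fibroblast markers. The summed signal of 5 endothelial markers was 397 to 476 units with PDGF against 517 to 731 units without it in the 8-array table, and 422 to 717 against 739 to 894 units in the 9-array table. Of these 5 genes, 3 and 2 passed the filter and none was listed at 0, and with PDGF in the 8-array table Eng fell by 1.29 on the log2 scale, Cdh5 was at 0.04 and Kdr at -0.03. In the 9-array table Eng was at -0.35 and Pecam1 at -0.24, and neither passed. Of the other markers, the epithelial Cldn3 rose by 1.42 in the 8-array table (adjusted p = 0.0214) and the fibroblast marker Pdgfra, a PDGF receptor, fell by 0.65 in the 9-array table (adjusted p = 0.0187). Cldn3 was at 0.17 in the 9-array table and Pdgfra at -0.18 in the 8-array table, and neither passed there. Their part in the PDGF results below was not tested. In bulk RNA, fewer cells of a type and less RNA per cell cannot be told apart. The Gapdh 3′ to 5′ signal ratio, a measure of RNA integrity, was 1.14 on the untreated array of the MEK experiment and 0.739 to 0.917 on the other 16 arrays. The same ratio for actin was highest on the vehicle array of the repeat, at 1.66, against 1.17 to 1.47 on the others. The PDGF effects in the 9-array table are therefore also given without each of these arrays.

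The promoter of Cebpb, which rose with PDGF, is shown beside those of Cebpa and Cebpg, which did not pass the test, so that their sequences can be compared. Each runs from 250 bases before to 50 bases after the RefSeq start of the gene in GRCm38.p6, 5′ to 3′ on the strand of the gene. Capitals mark TGACG on either strand (the core of a cAMP response element, CRE) and TATAAA (the TATA box). Cebpd has no sequence shown here.
Cebpb promoter, chr2:167688665-167688964, plus strand: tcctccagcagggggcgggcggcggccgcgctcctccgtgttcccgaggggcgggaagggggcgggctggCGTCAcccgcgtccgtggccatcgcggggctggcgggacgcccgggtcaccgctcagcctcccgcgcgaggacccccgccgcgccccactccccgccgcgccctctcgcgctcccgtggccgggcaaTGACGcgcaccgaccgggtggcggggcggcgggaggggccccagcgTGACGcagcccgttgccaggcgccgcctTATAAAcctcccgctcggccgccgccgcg
Cebpa promoter, chr7:35119043-35119342, plus strand: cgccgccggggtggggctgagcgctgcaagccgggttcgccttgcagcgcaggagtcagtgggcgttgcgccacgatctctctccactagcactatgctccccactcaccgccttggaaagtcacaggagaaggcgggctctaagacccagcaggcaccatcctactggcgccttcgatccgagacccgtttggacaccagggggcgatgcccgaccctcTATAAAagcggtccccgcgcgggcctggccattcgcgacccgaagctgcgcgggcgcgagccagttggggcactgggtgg
Cebpg promoter, chr7:35056517-35056816, minus strand: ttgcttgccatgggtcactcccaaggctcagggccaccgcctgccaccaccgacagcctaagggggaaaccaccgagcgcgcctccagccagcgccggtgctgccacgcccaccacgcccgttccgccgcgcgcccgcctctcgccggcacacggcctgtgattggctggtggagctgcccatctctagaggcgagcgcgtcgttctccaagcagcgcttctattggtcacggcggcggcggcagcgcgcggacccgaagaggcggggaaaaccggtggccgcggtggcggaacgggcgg

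The Cebpb window held TGACG 3 times, beginning 180, 53 and 7 bases before the start, the first of them on the other strand. It also held GGGCGG, the SP1 box, 5 times, and TATAAA 21 bases after the annotated start. The Cebpa window held TATAAA 30 bases before the start and 1 match to GCGNGGGCG, the EGR motif, 17 bases after it. The Cebpg window held neither TGACG nor TATAAA, and had 1 GGGCGG 44 bases after the start. Both strands were searched. Among 32851 RefSeq windows of the same length, 20.8% held TGACG, 35.7% GGGCGG, 13.6% TATAAA and 5.55% GCGNGGGCG. None of the 3 windows matched the full CRE TGACGTCA (1.79% of all windows), the AP-1 site TGANTCA (7.81%), the STAT site TTCNNNGAA (8.3%), the C/EBP site TTNNGNAA (40.7%), the ETS site CCGGAA (14.9%), the E-box CACGTG (7.15%) or the CArG box (1.63%). A match is a match of letters and does not show that a factor binds there. TGACG is contained in TGACGTCA, and the GGGCGG matches of Cebpb at 238 and 234 bases before the start overlap.

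Cebpb, the early C/EBP activator, was higher with PDGF in every pair of arrays that shared an experiment and an inhibitor. In the Src experiment its brighter probe set (1418901_at) read 2654.6 signal units with PDGF and SU6656, 2871.9 with PDGF and UO126, 2439.8 with PDGF and LY294002 and 3325.7 with PDGF alone. Without PDGF it read 1098.9 with SU6656, 1626.1 with UO126, 1131.4 with LY294002 and 1032.3 with vehicle. The 4 arrays with PDGF lay above all 4 without it. In the MEK experiment Cebpb (92925_at) read 4554.5 units under PDGF with UO126, 4974.3 under PDGF with PD98059 and 7649.4 with PDGF alone, against 2478.4 with UO126, 3086.3 with PD98059 and 3165.5 in untreated cells. In the repeat it read 3518 units with PDGF and SU6656 and 4288.6 with PDGF alone, against 1049.1 with vehicle. No array with PDGF overlapped those without it in either of these experiments.

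In each table limma estimated the PDGF effect from 4 array pairs. P-values were adjusted by Benjamini-Hochberg over every probe set that passed the filter (threshold 0.05). With 8 arrays the pairs were vehicle, SU6656, UO126 and LY294002 of the Src experiment. With 9 arrays they were untreated, UO126 and PD98059 of the MEK experiment, and vehicle of the repeat. The fitted effect therefore averages pairs with and without an inhibitor, which are not replicates of 1 condition. Without inhibitor, the Cebpb log2 ratio was 1.63 (Src), 1.33 (MEK) and 2.05 (repeat), each from single arrays. All fitted effects and ratios are differences in log2(signal + offset), where the offset is the 20th percentile of the table, and they understate the change of dim probe sets. Cebpb rose 2.24-fold in the 8-array table (log2 1.16, SE 0.123, 4 pairs, adjusted p = 0.00062) and 2.34-fold in the 9-array table (log2 1.23, SE 0.187, 4 pairs, adjusted p = 0.00642). A second Cebpb probe set (1427844_a_at) read 1227.9 to 1451.2 units with PDGF against 547.6 to 675.8 without it and rose 2.10-fold (log2 1.07, SE 0.101, adjusted p = 0.0003). With each array left out in turn, the Cebpb effect stayed between 1.01 and 1.31 in the 8-array table and between 0.95 and 1.42 in the 9-array table, with adjusted p up to 0.00516 and 0.0375. Without the untreated array of the MEK experiment it was 1.19 (adjusted p = 0.0375), and without the vehicle array of the repeat 0.95 (adjusted p = 0.0134). Without the variance trend of the fit, the 9-array call was lost (adjusted p = 0.145), and without the pairing of arrays it was lost too (adjusted p = 0.272).

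**Figure D1:**
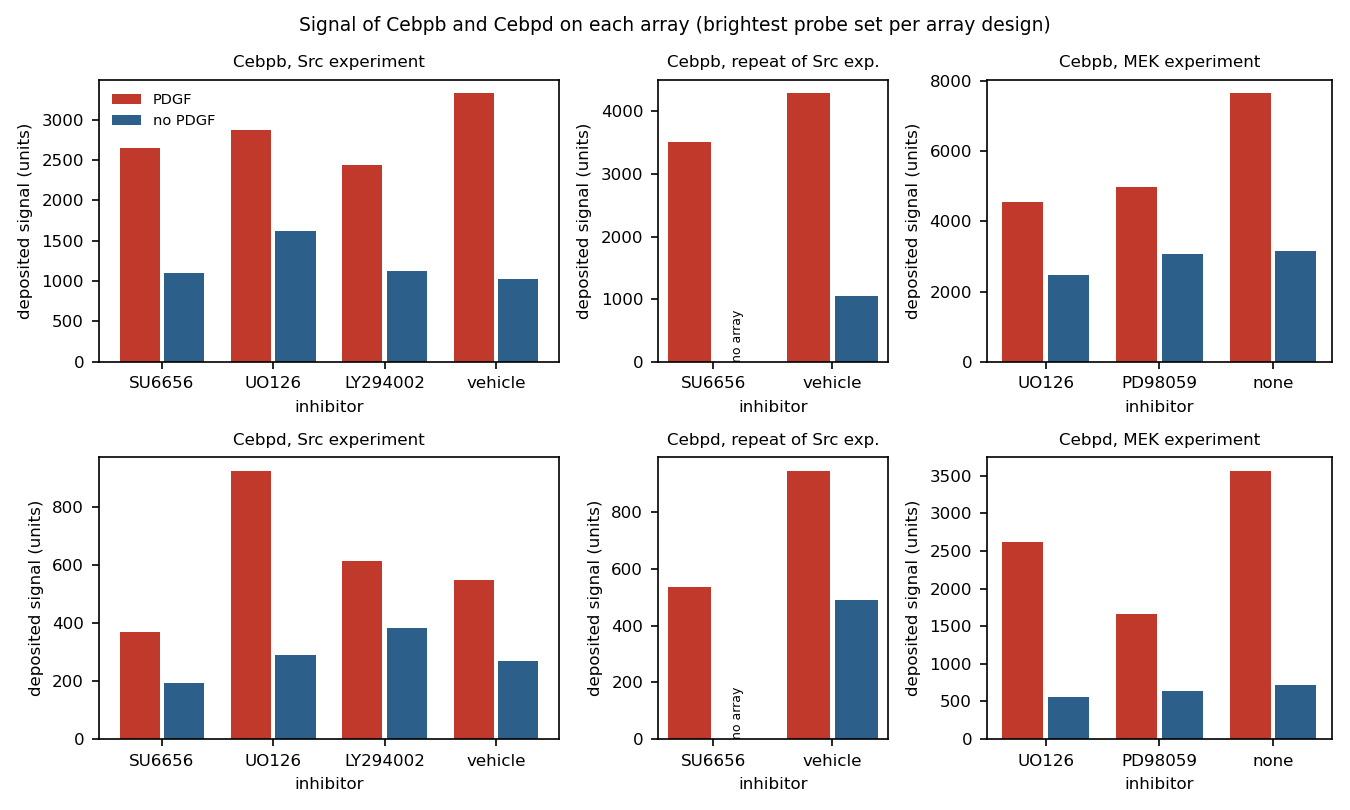
Deposited signal of Cebpb and Cebpd (linear units from 0) on each array of the 3 experiments, at the brightest probe set of each gene, with the PDGF array (red) left of the array without PDGF (blue) for each inhibitor. Each bar is 1 array, so there are no error bars, and "no array" marks the absent SU6656 condition of the repeat. Cebpb reached 7649.4 units with PDGF in the MEK experiment, and Cebpd read 925.2 units with PDGF and UO126 in the Src experiment against 547.4 with PDGF alone.

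Cebpd, the other early activator of the family, also rose with PDGF, but its signals moved differently across inhibitors. In the Src experiment its brighter probe set (1423233_at) read 369.5 units with PDGF and SU6656, 925.2 with PDGF and UO126, 612.5 with PDGF and LY294002 and 547.4 with PDGF alone. Without PDGF it read 194.8 units with SU6656, 289 with UO126, 384 with LY294002 and 268.5 with vehicle. The array with PDGF and SU6656 lay below that with LY294002 alone, so the groups with and without PDGF overlapped. In the MEK experiment Cebpd (160894_at) read 2622 units under PDGF with UO126, 1655.9 under PDGF with PD98059 and 3567.1 with PDGF alone, against 562.5 with UO126, 643.6 with PD98059 and 714.8 in untreated cells. In the repeat it read 535.6 units with PDGF and SU6656 and 947 with PDGF alone, against 490.6 with vehicle. There the SU6656 array with PDGF stood close to the vehicle array, and in the MEK experiment the groups did not overlap.

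Cebpd rose 2.04-fold with PDGF in the 8-array table (log2 1.03, SE 0.153, 4 pairs, adjusted p = 0.00503) and 3.19-fold in the 9-array table (log2 1.67, SE 0.194, 4 pairs, adjusted p = 0.000879). The dimmer Cebpd probe set (1456605_at) read 78.6 units under PDGF with SU6656, 182.1 with UO126, 232 with LY294002 and 180.3 with PDGF alone, against 26.9, 142.5, 194 and 110.9 units for the same inhibitors and vehicle without PDGF. It was higher in all 4 pairs but did not pass the test (log2 0.57, SE 0.198, adjusted p = 0.186). With each array left out in turn, the effect at the brighter probe sets ran from 0.85 to 1.16 in the 8-array table and from 1.48 to 1.90 in the 9-array table, with adjusted p up to 0.0314 and 0.0102. Without the untreated array of the MEK experiment it was 1.48 (adjusted p = 0.00481), and without the vehicle array of the repeat 1.90 (adjusted p = 0.00136). Without the variance trend the 8-array call was lost (adjusted p = 0.0691), and without the pairing both calls were lost (adjusted p = 0.0563 in each table).

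Among the 15838 probe sets tested in the 8-array table, 397 rose (2.51%) and 128 fell (0.808%) with PDGF. Among the 8695 of the 9-array table, 127 rose (1.46%) and 23 fell (0.265%). With arrays scaled to a common median in place of quantile normalisation, the 8-array split was 579 higher and 65 lower. Of the C/EBP probe sets, 3 of 7 tested (2 for Cebpb, 1 for Cebpd) and 2 of 4 (1 each) rose, and none fell. PDGF alone was also compared with its own basal array in the 3 experiments, which used 2 array designs with different probe sets. The time of PDGF in the MEK experiment is unknown, so the 3 comparisons are not replicates of 1 condition. Over them, Cebpb was higher by 1.67 ± 0.36 on the log2 scale (SD, n = 3 experiments), with 1.63 in the Src experiment, 1.33 in the MEK experiment and 2.05 in the repeat. Cebpd was higher by 1.41 ± 0.72 (SD, n = 3), with 0.99, 2.24 and 0.98 in the same experiments. The order of the 2 genes therefore turned between experiments, Cebpd having the larger response in the MEK experiment and Cebpb in the others. The basal signals differed as well: in the 9-array table, the MEK over the repeat signal ratio was 3.02 for Cebpb and 1.46 for Cebpd without PDGF, and 1.78 for Cebpb and 3.77 for Cebpd with PDGF.

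**Figure D2:**
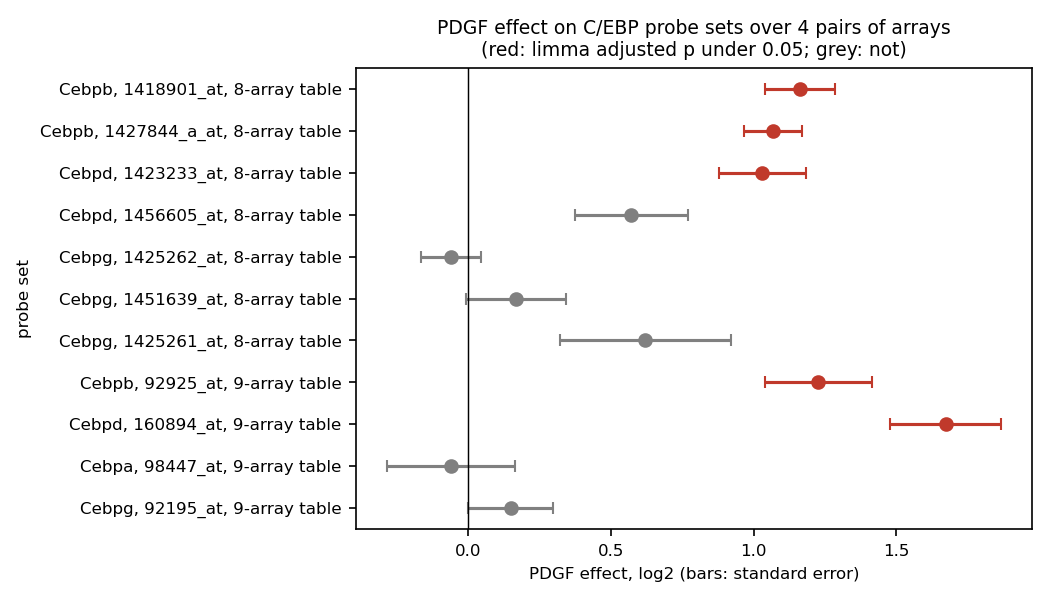
Fitted PDGF effect (log2, PDGF over no PDGF, with standard error) of every C/EBP probe set that passed the filter in the 8-array and the 9-array table. Red points had an adjusted p under 0.05 and grey points did not. All Cebpb probe sets and the brighter Cebpd probe set of each table are red, while Cebpa and all Cebpg probe sets are not.

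Cebpg, the partner without a classical activation domain, had no probe set that passed the test for PDGF. Its brightest probe set in the 8-array table (1425262_at) read 460 units under PDGF with SU6656, 368.6 with UO126, 378.9 with LY294002 and 507.1 with PDGF alone, against 543.7, 371, 430.3 and 518.3 units for the same inhibitors and vehicle without PDGF (log2 -0.06, adjusted p = 0.838). Its other probe sets (1451639_at and 1425261_at) had effects of 0.17 (adjusted p = 0.696) and 0.62 (adjusted p = 0.349). The 3 probe sets were designed from the same transcript record and did not move together. The dimmest, 1425261_at, read 105.1 units with PDGF alone against 20.1 with vehicle, whereas 1451639_at read 317.7 units with PDGF alone against 464.5 with vehicle. In the 9-array table Cebpg (92195_at) read 362 units under PDGF with UO126, 317.3 with PD98059 and 326.8 with PDGF alone in the MEK experiment, against 267.4, 311.3 and 266.4 units without PDGF. In the repeat it read 301.5 units with PDGF and SU6656 and 329.1 with PDGF alone, against 370.5 with vehicle, and the fitted effect was 0.15 (SE 0.148, adjusted p = 0.729). PDGF alone over basal gave 0.04 ± 0.19 (SD, n = 3 experiments), again over 2 array designs.

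Cebpa, the member that acts late in adipogenesis, was near the low end of the signals in the 8-array table and near the middle in the 9-array table. In the first its probe set (1418982_at) read 12.1 to 20 units with PDGF and 18 to 53.5 units without it, at the 12.8th percentile of mean signal, and it was left out by the filter, so no test was made. In the 9-array table (98447_at), where it stood at the 53.4th percentile, it read 157.2 units under PDGF with UO126, 280.5 with PD98059 and 237.2 with PDGF alone in the MEK experiment, against 202, 193 and 185.9 units without PDGF. In the repeat it read 165.5 units with PDGF and SU6656 and 74.6 with PDGF alone, against 136.3 with vehicle. PDGF over basal was 0.29 in the MEK experiment and -0.79 in the repeat, and the fitted effect was -0.06 (SE 0.225, adjusted p = 0.949).

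**Figure D3:**
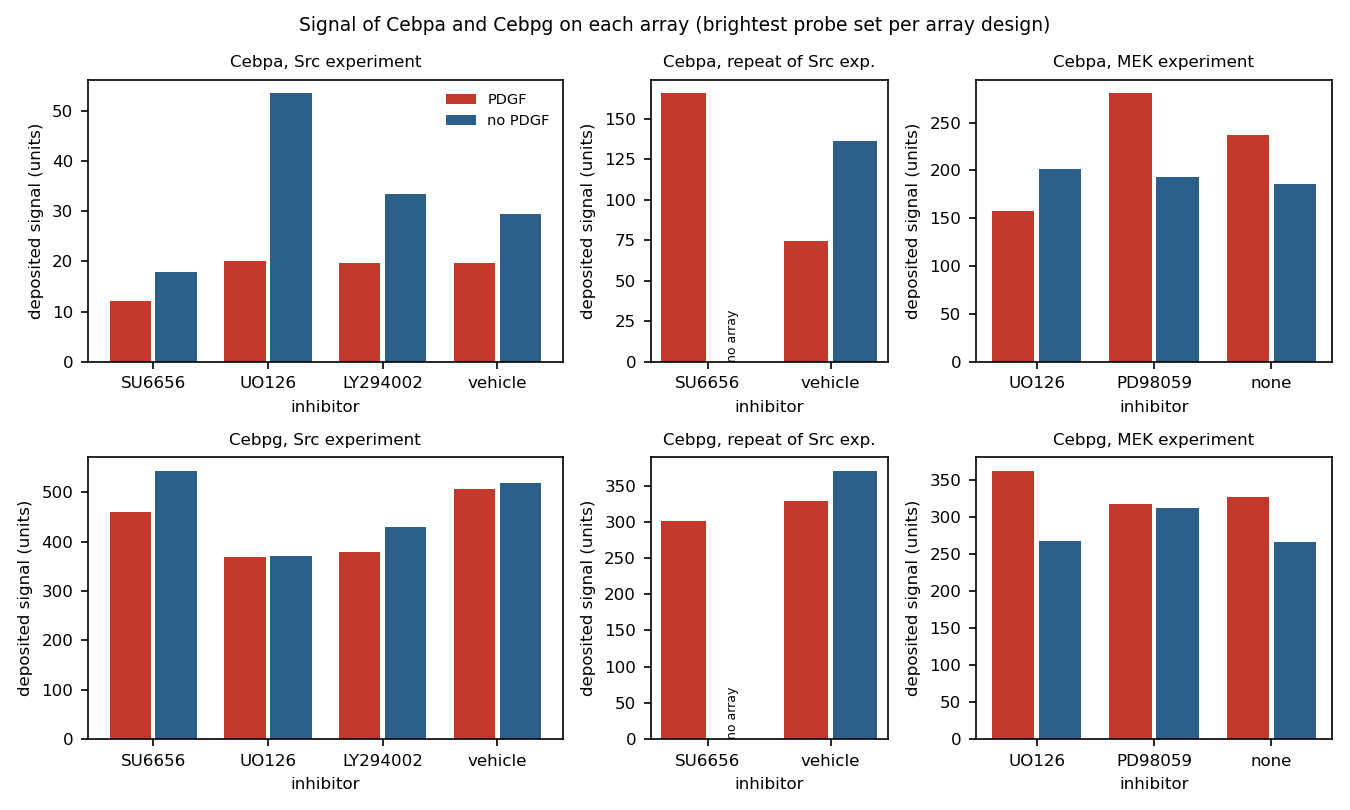
Deposited signal of Cebpg and Cebpa (linear units from 0) on each array, at the brightest probe set of each gene, with the PDGF array (red) left of the array without PDGF (blue) for each inhibitor; each bar is 1 array. Cebpg stayed between 266.4 and 543.7 units on all 17 arrays, and Cebpa read 12.1 to 53.5 units in the Src experiment.

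The dependence of the PDGF response on each kinase was read as the log2 ratio of PDGF with an inhibitor over that inhibitor alone. For Cebpb this response was 0.87 with UO126 and 0.66 with PD98059 in the MEK experiment, against 1.33 without inhibitor. In the Src experiment it was 0.73 with UO126, 1.21 with SU6656 and 1.08 with LY294002, against 1.63 with vehicle, and in the repeat without inhibitor it was 2.05. As a share of the response without inhibitor on the log2 scale, 65.1% was left with UO126 and 49.2% with PD98059 in the MEK experiment. With the inhibitors of the Src experiment, 44.8% was left with UO126, 73.9% with SU6656 and 66.3% with LY294002 (62.6%, 70.7% and 77.4% at the second probe set). The 3 responses under a MEK inhibitor (0.66 to 0.87) thus lay below the other 5 (1.08 to 2.05).

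For Cebpd the same response was 2.12 with UO126 and 1.35 with PD98059 in the MEK experiment, against 2.24 without inhibitor. In the Src experiment it was 1.58 with UO126, 0.90 with SU6656 and 0.64 with LY294002, against 0.99 with vehicle, and in the repeat without inhibitor it was 0.98. The share left was 94.4% with UO126 and 60.3% with PD98059 in the MEK experiment, and in the Src experiment it was 159% with UO126, 90.2% with SU6656 and 64.8% with LY294002. The dimmer Cebpd probe set gave 79.2% with UO126, 155% with SU6656 and 42.7% with LY294002 in that experiment, so the probe sets disagreed on which side of the uninhibited response UO126 and SU6656 lay. Its response with vehicle was 0.61. The 3 responses under a MEK inhibitor (1.35 to 2.12) overlapped the other 5 (0.64 to 2.24).

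This separation for Cebpb was noticed in the values and has no test, since the tables were normalised separately. Of 5537 genes kept in both tables, 90 (1.63%) had all 3 MEK-inhibited responses below the other 5, as did 11 of the 84 genes called higher with PDGF in both tables (13.1%). The 11 were Cebpb, Dnajb1, Errfi1, Ifrd1, Tgif1, Fosb, Myc, F3, Fosl1, Ereg and Stk40. The gap between the groups for Cebpb was 0.21 on the log2 scale, and 0.10 when its second probe set was used in the 8-array table.

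**Figure D4:**
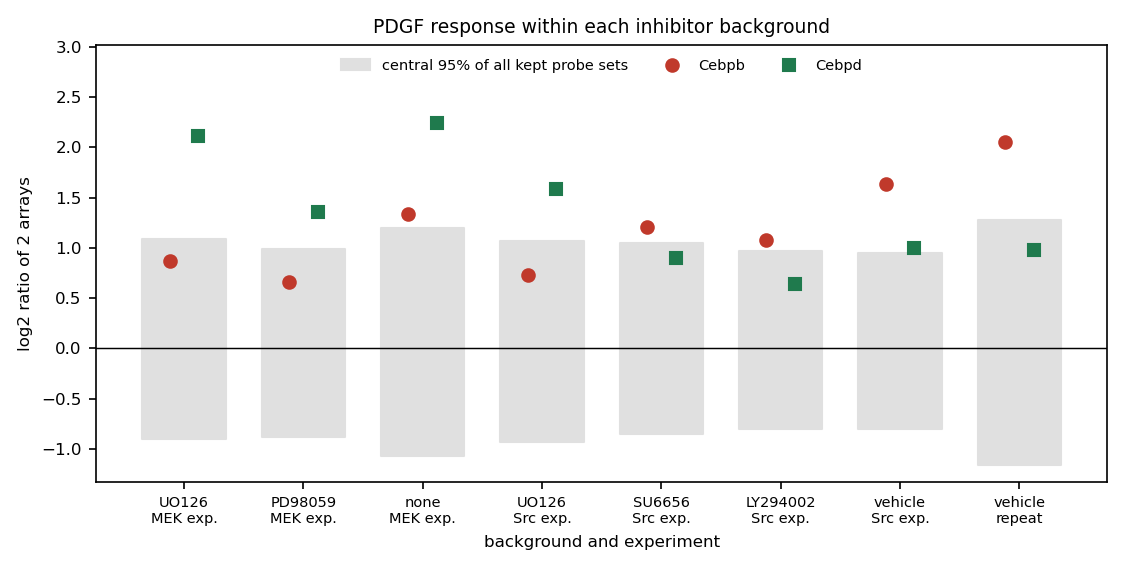
PDGF response (log2, PDGF over no PDGF with the same inhibitor) of Cebpb and Cebpd in each experiment and inhibitor background; each point is the ratio of 1 array to 1 array, so there are no error bars, and each grey band spans the central 95% of all probe sets kept. The Cebpb responses with a MEK inhibitor lie between 0.66 and 0.87, below its others, and those of Cebpd lie among its others.

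MEK inhibition was next compared within PDGF-treated cells. In the MEK experiment Cebpb was lower with PDGF and UO126 than with PDGF alone by a log2 ratio of -0.85, and with PD98059 by -0.72. In the Src experiment the ratio for UO126 was -0.24, and -0.19 at the second probe set. The residual SDs of these probe sets were 0.26 and 0.156. They describe 1 array, and a ratio of 2 arrays varies more, so they do not set either ratio apart from noise. Cebpd was lower in the MEK experiment, at -0.45 with UO126 and -1.07 with PD98059, but higher in the Src experiment, at 0.70 with UO126 (0.07 at the second probe set). The same dose of UO126 thus went with opposite signs for Cebpd in the 2 experiments.

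In the 9-array fit, which pools both MEK inhibitors, the effect under PDGF was -0.96 for Cebpb (SE 0.21, unadjusted p = 0.00093, adjusted p = 0.309) and -0.45 for Cebpd (SE 0.32, adjusted p = 0.818). limma called 0 of 8695 probe sets (0%) in this comparison, with 629 at an unadjusted p under 0.05, so neither gene passed. Without PDGF the pooled effect was -0.03 for Cebpb and -0.57 for Cebpd (adjusted p = 0.775), with 1 probe set called (0.0115%). The interaction of PDGF with MEK inhibition was -0.93 for Cebpb (SE 0.266, unadjusted p = 0.00551, adjusted p = 0.79) and 0.12 for Cebpd (SE 0.405, adjusted p = 0.999), with 0 called (0%) and 423 at an unadjusted p under 0.05. Without the untreated array of the MEK experiment, the effect without PDGF was 0.50 for Cebpb and -1.51 for Cebpd, and the interaction was -1.29 for Cebpb and 0.75 for Cebpd, and none passed. Over the MEK experiment alone, the effect without PDGF was -0.21 for Cebpb and -0.25 for Cebpd, that under PDGF was -0.78 for Cebpb (adjusted p = 0.401) and -0.76 for Cebpd (adjusted p = 0.616), and the interaction was -0.57 for Cebpb and -0.51 for Cebpd. The values of the pooled fit rest on single arrays, and without the PDGF array of the MEK experiment the effect under PDGF was 0.50 for Cebpd and -1.50 for Cebpb, and neither passed.

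Without PDGF, UO126 went with a higher Cebpb signal in the Src experiment (log2 ratio 0.66, and 0.32 at the second probe set) and a lower one in the MEK experiment (-0.39), while PD98059 gave -0.04. The smaller Cebpb response under UO126 in the Src experiment therefore includes a raised level without PDGF. For Cebpd, UO126 alone gave 0.11 in the Src experiment and -0.33 in the MEK experiment, and PD98059 gave -0.18. In the 8-array fit over both states of PDGF, the UO126 effect was 0.21 for Cebpb (adjusted p = 0.773), 0.40 for Cebpd (adjusted p = 0.633) and -0.42 for Cebpg (SE 0.149, adjusted p = 0.44), with -0.01 and 0.72 at the other Cebpg probe sets 1451639_at and 1425261_at. Of all 15838 probe sets, 7 (0.0442%) were called.

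For Src family kinases, Cebpd had the larger decrease of signal with SU6656 in both experiments that used it. Under PDGF the SU6656 log2 ratio of Cebpd was -0.51 in the Src experiment (-0.91 at the second probe set) and -0.83 in the repeat. That of Cebpb was -0.33 (-0.25 at the second probe set) and -0.27. Without PDGF, SU6656 gave -0.41 for Cebpd (-1.24 at the second probe set) and 0.09 for Cebpb. The second Cebpd probe set read only 26.9 units on that SU6656 array, under the offset of 36.3, and its fitted effect below rests in part on that reading. In the 8-array fit, the SU6656 effect was -0.46 for Cebpd (SE 0.216, unadjusted p = 0.0599, adjusted p = 0.641), -1.07 at its second probe set (SE 0.28, unadjusted p = 0.00361, adjusted p = 0.405) and -0.12 for Cebpb (SE 0.175, adjusted p = 0.915). None of these passed, against 17 of 15838 probe sets (0.107%) called. The PDGF response of Cebpd over SU6656 alone was 0.90, against 0.99 with vehicle, since its signal was lower with SU6656 in both states of PDGF.

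For PI 3-kinase, the LY294002 log2 ratio under PDGF was -0.44 for Cebpb (-0.23 at the second probe set) and 0.14 for Cebpd (0.31 at the second probe set). Without PDGF it was 0.11 for Cebpb and 0.49 for Cebpd (0.66 at the second probe set). In the 8-array fit, the LY294002 effect was -0.16 for Cebpb (adjusted p = 0.759), 0.31 for Cebpd (adjusted p = 0.60) and 0.49 at the second Cebpd probe set (adjusted p = 0.517). No C/EBP probe set was called, against 81 of 15838 (0.511%). The repeat and the MEK experiment had no array with LY294002, so this comparison rests on the 8-array table.

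Set side by side, the inhibitor ratios of Cebpb minus those of Cebpd under PDGF were -0.40 and -0.94 for UO126 in the MEK and the Src experiment and 0.35 for PD98059. They were 0.18 and 0.56 for SU6656 in the Src experiment and the repeat, and -0.57 for LY294002. Cebpb was thus the lower of the pair relative to PDGF alone with UO126 and LY294002, and Cebpd with SU6656 and PD98059. The 2 MEK inhibitors differed in sign, so the MEK ratios do not separate the genes. With 3 ratios for MEK, 2 for Src and 1 for PI 3-kinase, an exact two-sided sign-flip test could not go below 0.25, 0.5 and 1, and none was run. The ratios are not separate either. In the Src experiment those for UO126, SU6656 and LY294002 share the array with PDGF alone. In the MEK experiment those for UO126 and PD98059 share its array with PDGF alone. The direction of all 6 differences was unchanged with the values as deposited, with offsets at the 5th and the 40th percentile, and so was that of the 3 from the Src experiment with the mean over all probe sets of each gene.

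**Figure D5:**
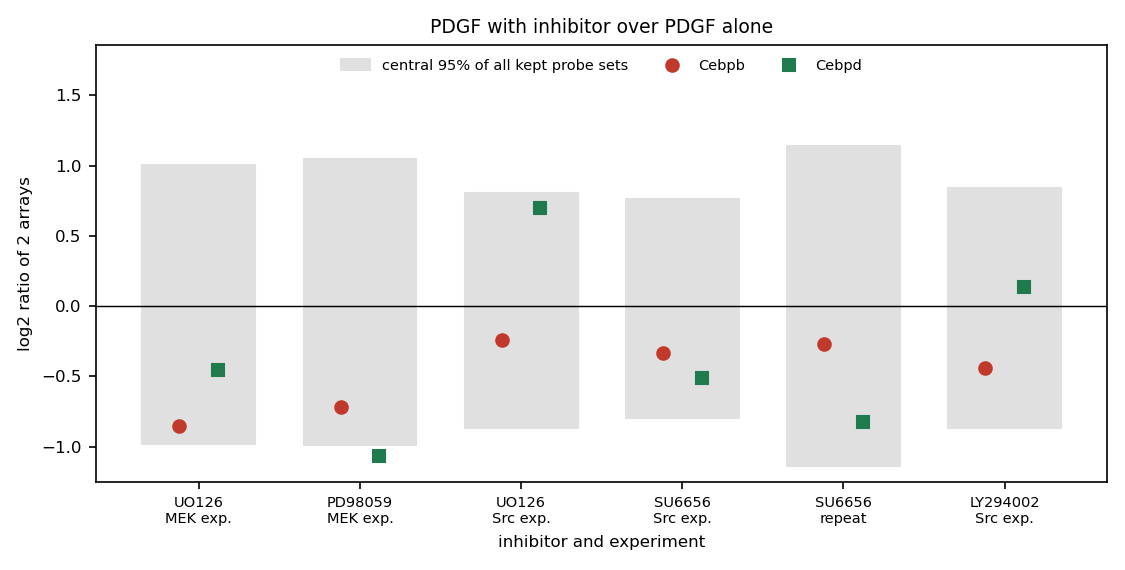
Log2 ratio of PDGF with an inhibitor over PDGF alone for Cebpb and Cebpd in each experiment, 1 array over 1 array, with each grey band spanning the central 95% of all probe sets kept. UO126 stands at -0.24 for Cebpb and 0.70 for Cebpd in the Src experiment, and SU6656 is below 0 for both genes in both experiments.

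By level, the 4 PDGF arrays of the Src experiment stood highest for Cebpb, in the order PDGF alone, with UO126, with SU6656 and with LY294002, and these neighbours differed by less than the residual SD of 0.26 (log2). UO126 alone came next, 0.54 below the lowest PDGF array and 0.54 above LY294002, with SU6656 and vehicle lower still. LY294002, SU6656 and vehicle did not differ beyond that SD. For Cebpd the order was PDGF with UO126, PDGF with LY294002, PDGF alone, LY294002, PDGF with SU6656, UO126, vehicle and SU6656. Gaps above the residual SD of 0.28 followed PDGF with UO126 (0.56), PDGF alone (0.51), PDGF with SU6656 (0.38) and vehicle (0.41). For both genes the residual SD describes 1 array, and a gap between 2 arrays varies more. These gaps are therefore no test of separate levels. In the MEK experiment the order of Cebpb was PDGF alone, then PDGF with PD98059 and with UO126, then untreated, PD98059 and UO126. That of Cebpd was PDGF alone, PDGF with UO126, PDGF with PD98059, untreated, PD98059 and UO126. In the repeat, Cebpb with PDGF and SU6656 was 1.78 above vehicle, and Cebpd with PDGF and SU6656 was 0.16 above vehicle. The latter was within the residual SD of 0.43 of Cebpd, taken from a PDGF fit that left out the array with PDGF and SU6656.

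The 5 genes whose log2 signal followed Cebpb most closely over the 8 arrays of the Src experiment were Srxn1 (Pearson r = 0.982), Nfil3 (0.980), Slc20a1 (0.978), Pvr (0.968) and Atf3 (0.961). Over the 9 arrays of the other table, centred on each experiment, their r with Cebpb was 0.929, 0.718, 0.944, 0.741 and 0.883. Srxn1 encodes sulfiredoxin, Slc20a1 a phosphate transporter and Pvr the poliovirus receptor, and Nfil3 and Atf3 are zipper factors like Cebpb. For Cebpd the closest were Zfp36l1 (0.979), an RNA-binding protein of the tristetraprolin family, Cited2 (0.978), a coactivator-binding protein, the ribosomal protein gene Rpl12 (0.971), the E2F factor gene E2f5 (0.964) and Gadd45b (0.963), a stress response gene. In the 9-array table Zfp36l1, Cited2, E2f5 and Gadd45b had r with Cebpd of 0.854, 0.679, 0.0161 and 0.753, and Rpl12 had no probe set kept. Cebpb and Cebpd correlated with each other at 0.777 and 0.741. These are descriptions over few arrays that share treatments and experiments.

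Among zipper relatives that can pair with C/EBP proteins or share their sites, PDGF gave 2 higher and 1 lower of 8 tested in the 8-array table, and 3 higher of 8 in the 9-array table. The list's median effects were -0.13 and 0.07, against -0.03 and -0.03 for all probe sets tested. Atf3, a stress-induced repressor, rose by 3.30 (SE 0.187) and 3.01 (SE 0.173) on the log2 scale, and Nfil3 by 1.86 (SE 0.115) and 1.68 (SE 0.138). Ddit3 (CHOP), which pairs with C/EBP proteins and blocks their binding to classical sites, rose by 1.01 (SE 0.116) in the 9-array table. Ddit3 was at 0.50 in the 8-array table, where it did not pass. Atf4, an amino acid response factor, fell by 0.42 (SE 0.0553, adjusted p = 0.0024) in the 8-array table and was at -0.31 in the 9-array table, where it did not pass. Its call was lost with no trend (adjusted p = 0.124) and with no pairing (adjusted p = 0.155), and without pairing so were those of Ddit3 (adjusted p = 0.24) and Nfil3 (adjusted p = 0.0835) in the 9-array table.

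Of a list made for factors and receptors upstream of Cebpb and Cebpd, 5 of 13 tested rose in the 8-array table and 3 of 12 in the 9-array table, with none lower (medians 0.25 and 0.24). Among all probe sets tested, 2.51% and 1.46% rose (medians -0.03 and -0.03). Egr2 (Krox20), which induces Cebpb in mouse preadipocytes, rose by 3.94 and 4.06. Klf4, its partner there, rose by 0.89 in the 8-array table (adjusted p = 0.0187) and was at 0.61 in the 9-array table, where it did not pass. Srf, the serum response factor, rose by 0.84 in the 8-array table and had no tested probe set in the other. Osmr, the oncostatin M receptor, rose by 0.59 and 0.70 (adjusted p = 0.0377 and 0.045), and Stat3, an activator of Cebpd, by 0.41 in the 8-array table (adjusted p = 0.0147). Stat3 was at 0.09 in the 9-array table and did not pass there. Klf5 is counted in this list but in mouse adipogenesis acts downstream of C/EBPβ and C/EBPδ, which induce it, and it rose by 0.92 in the 9-array table (adjusted p = 0.0381). In the 8-array table Klf5 was at 0.34 and did not pass. The calls of Klf4, Klf5 and Osmr were lost with no filter on dim probe sets, which left counts of 3 and 1, and also with no trend or no pairing (adjusted p = 0.0725 to 0.222), and that of Stat3 was lost with no trend (adjusted p = 0.145).

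Of the kinases and cofactors that modify C/EBP proteins, 2 of 10 tested rose in the 8-array table and 0 of 6 in the 9-array table (medians -0.0021 and -0.03). The share of all probe sets that rose was 2.51% and 1.46%, and the share that fell was 0.808% and 0.265% (medians -0.03 and -0.03). Trib1 and Trib2, pseudokinases that target C/EBPα for degradation, rose by 3.07 (SE 0.192) and 1.14 (SE 0.238, adjusted p = 0.0327). The Trib2 call was lost with no filter, no trend and no pairing (adjusted p = 0.101, 0.131 and 0.152), while Trib1 kept its call under each. Their relative Trib3 fell by 0.91 with LY294002 (SE 0.123, adjusted p = 0.0155), the only member of these lists called with any inhibitor, and with no trend this call was lost (adjusted p = 0.324). Of the adipogenic genes downstream of C/EBP factors, 7 were tested in the 8-array table (1 higher, 1 lower) and 5 in the 9-array table (0 called) (medians -0.07 and 0.02). These were Fasn (0.32), which makes fatty acids, and Angptl4 (-0.56), an inhibitor of lipoprotein lipase. The Angptl4 call was lost with no filter (adjusted p = 0.0716), and both calls were lost with no trend (adjusted p = 0.20 and 0.101) and with no pairing (adjusted p = 0.297 and 0.501). Pparg, Fabp4 and Adipoq were too dim to be tested in either table.

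Of the inflammatory and acute-phase genes with C/EBP sites, 2 of 8 tested rose in the 8-array table and 3 of 10 in the 9-array table (medians 0.16 and 0.34). Among all probe sets, 2.51% and 1.46% rose (medians -0.03 and -0.03). Ptgs2, cyclooxygenase 2, rose by 3.48 and 3.44, and the chemokine gene Ccl2 by 2.79 and 3.73. Cxcl1, another chemokine gene, rose by 1.69 in the 9-array table. The Ccl2 calls were lost with no trend (adjusted p = 0.0536 and 0.0575), and without pairing so were those of Ccl2 (adjusted p = 0.108) and Cxcl1 (adjusted p = 0.95) in the 9-array table. Il6 was at 0.66 in the 9-array table and did not pass, and it was too dim to be tested in the other. The acute-phase genes Saa3, Lcn2 and Hp did not pass in either table where they were tested.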

How the data were processed

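RNA of NIH 3T3 cells was measured on 17 arrays of 2 designs. The authors deposited 1 linear intensity per probe set and array, and every array had been scaled to a trimmed mean near 500.2 or 500.3 units before deposit. The software behind it is not given in the sources used here. The median signal of an array was 174.7 to 198.4 units in one table and 133.7 to 156.15 units in the other, and the number of arrays limits the precision. All deposited columns were used.

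Probe sets were named by the platform annotation, and 20364 and 10839 symbols were updated through RefSeq (GRCm38.p6, names and promoters only). Of all probe sets, 20393 and 10855 had 1 gene, 691 and 396 several, and 1606 and 1237 were unlisted. The 64 and 66 control probe sets were left out. Values were quantile normalised within each table and transformed as log2(value + 36.3) or log2(value + 21.2), the 20th percentiles. The lowest 30% of probe sets by mean (under 73.8 and 44.7 units) were left out.

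Fits used limma 3.58.1 in R 4.3.3 with a variance trend, Benjamini-Hochberg adjustment and a threshold of 0.05. PDGF was fitted over 4 pairs per table with the pair as a block, because both arrays of a pair share an experiment and an inhibitor by design. The residual SD of these fits has 3 degrees of freedom and includes differences in response between inhibitors. The tables were never tested together. Only the PDGF fits were tested on simulated data, with the same PDGF effect set for all pairs. The inhibitor and interaction fits were not tested in this way. Named genes are all members, the 5 genes most like Cebpb and Cebpd, and list members past the threshold in a PDGF fit (up to 6 per list). Trib3, Il6, Saa3, Lcn2, Hp, Pparg, Fabp4, Adipoq, the markers and the 11 genes that share the MEK pattern of Cebpb were named after their values were seen. The members and lists were chosen with earlier results of these data known. Alternatives were other normalisation, offsets, filter, trend, pairing and arrays left out. For list members, no trend and no pairing were chosen after seeing the data.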

Additional observations from a re-analysis of the deposited data

Results flagged for a closer look

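The same contrast had opposite signs in the Src and the MEK experiment for 5 readouts of UO126, each the log2 ratio of 1 array to 1 array at the brightest probe set. None of these differences was tested. UO126 without PDGF gave 0.66 for Cebpb in the Src experiment and -0.39 in the MEK experiment. Under PDGF, UO126 gave 0.70 for Cebpd in the Src experiment and -0.45 in the MEK experiment. Without PDGF it gave 0.11 and -0.33 for Cebpd in the Src and the MEK experiment. For Cebpg, UO126 under PDGF gave -0.39 in the Src experiment and 0.18 in the MEK experiment, and without PDGF -0.45 and 0.021. Other probe sets were measured in the Src experiment alone. They gave 0.32 for the first contrast (Cebpb), 0.07 and 0.20 for those of Cebpd, 0.44 and 0.19 for Cebpg under PDGF, and -0.46 and 1.25 for Cebpg without PDGF. The opposite sign of Cebpg under PDGF thus held at 1 of 3 probe sets, and that without PDGF at 2 of 3. The array design also differs between these experiments.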

How the results depend on the processing

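No fitted C/EBP effect that passed the threshold changed sign in any alternative run. The pairs come from the design. With no replicate block, the PDGF effect of Cebpd had an estimate of 1.03 (8 arrays, adjusted p = 0.0563) and 1.67 (9 arrays, adjusted p = 0.0563), and that of Cebpb over 9 arrays was 1.23 (adjusted p = 0.272). With no variance trend, Cebpd over 8 arrays was 1.03 (adjusted p = 0.0691) and Cebpb over 9 arrays was 1.23 (adjusted p = 0.145). Cebpb in the 8-array table held under each. Of all probe sets, 241 and 60 were called with PDGF with no replicate block, and 175 and 63 with no trend, against 525 and 150. With no trend, SU6656, UO126 and LY294002 called 0, against 17, 7 and 81. With no filter they called 11, 0 and 45, and the list counts fell as given for the upstream factors, to 1 for the modifiers and 1 for the adipogenic genes. With a common median LY294002 called 27 up and 27 down, against 32 and 49, and MEK inhibition under PDGF called 3, against 0.

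With 1 array left out, PDGF calls in the 9-array table were 101 to 115, and those in the 8-array table were 261 to 385. Those in the 8-array table were 267 without vehicle, 261 without PDGF, 339 without SU6656, 348 without LY294002, 344 without PDGF with SU6656 and 337 without PDGF with LY294002. LY294002 called 4 to 107, SU6656 0 to 19, UO126 0 to 8 and MEK inhibition under PDGF 0 to 3. The dimmer Cebpd probe set moved from -0.91 to -0.60 for SU6656 under PDGF with an offset at the 40th percentile. The gap between Cebpb responses without and with a MEK inhibitor was 0.21 with values as deposited, 0.23 and 0.18 with offsets at the 5th and the 40th percentile and 0.10 with the second probe set, all chosen after seeing the data. The cause of these shifts was not tested.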
